A study of Rattus norvegicus with 29 samples.

Results

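Sensory ganglia of the forelimb were compared between rats that had a unilateral cortical stroke followed by vehicle infused under the skin and sham rats, both at week 11. The 10 libraries are those that the labels place in group D (stroke, vehicle, week 11: rats 17, 27, 33, 50 and 57) and in group F (sham, week 11: rats 8, 11, 54, 63 and 81), out of 29 libraries in the series, with 1 library for each rat. All animals were elderly Lister Hooded rats, and the labels name no transgene. Messenger RNA was enriched by its poly-A tail from whole C6-8 dorsal root ganglia of the affected side and sequenced with strand information kept. The labels call group F sham where the series text speaks of naïve rats, and an infusion is described for the stroke arms only. The stroke and the vehicle infusion can therefore not be told apart. The other arms were stroke with neurotrophin-3 (NT3) at both weeks, and vehicle and sham at week 5.

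A dorsal root ganglion holds the cell bodies of the primary sensory neurons, among them proprioceptors that report muscle stretch, touch neurons and nociceptors. Satellite glia wrap the cell bodies, Schwann cells ensheathe the axons, and resident macrophages, fibroblasts and vessels fill the rest. A cortical stroke does not cut these axons, but it removes descending input to the spinal and brainstem circuits in which they end. Cutting a peripheral nerve is known to switch on Atf3, Jun, Gap43 and the neuropeptides galanin and NPY in the injured neurons, which makes these genes a reference for what an axon injury would look like.

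The ganglion was recognisable in every library. Expression is given as counts scaled to the size of each library (CPM). Over the 10 libraries the neurofilament Nefl ranged from 3085 to 3715 CPM, peripherin (Prph) from 739.8 to 1944 CPM, the nociceptor sodium channel Scn10a from 563 to 1326 CPM and the satellite glia marker Fabp7 from 23 to 102 CPM. Calca, which encodes the peptide CGRP, was listed at only 2.27 to 6.55 CPM. It is annotated with 3 transcripts, and reads shared between transcripts of a gene were set aside as ambiguous, so its level is not a measure of CGRP here.

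Libraries that stand apart are described before the genes, because several results rest on them. Vehicle rat 27 had 9555685 reads assigned to transcripts, against 16703574 to 22773108 in the other 9, and 37.2% of its reads aligned at more than 1 place, against 16.8% to 19.3%. Of 11035 named transcripts with a mean of at least 1 CPM, 156 were more than 2-fold above every other library in rat 27, and no more than 1 was in any other library. Sham rats 8 and 11 had the lowest shares of reads outside annotated features, 21.1% and 21.8%, against 24.1% to 27.8% in the other 8. Rat 8 also lay at 75.7 on the first principal component, where the other 9 lay between -31.2 and 27.5, and it held the highest value of 2911 and the lowest value of 3667 of the 11035 transcripts. None of 5 library measures differed between the groups by exact permutation, two-sided. The smallest p such a test can give is 0.00794, and the lowest of the 5 here was 0.286 for the ambiguous share (0.579 after adjustment over the 5).

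**Figure D1:**
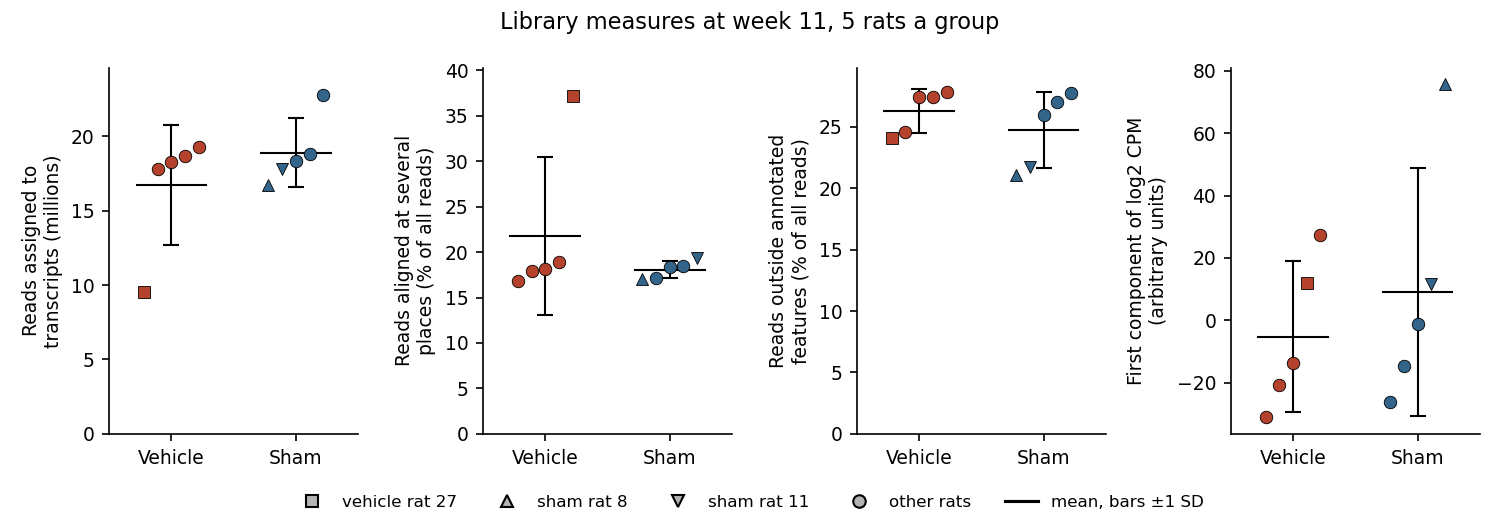
Reads assigned to transcripts, share of reads aligned at several places, share of reads outside annotated features and position on the first principal component, one point per rat, with group means and SD. Vehicle rat 27 (square) stands apart with 37.2% of reads aligned at several places, and sham rats 8 and 11 (triangles) have the lowest shares outside features, 21.1% and 21.8%.

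No transcript passed the threshold for stroke with vehicle against sham at week 11. In edgeR's quasi-likelihood test across 12556 transcripts, 0 had a Benjamini-Hochberg adjusted p under 0.05 (0%), and the smallest adjusted p was 0.507. At an unadjusted p under 0.05 there were 477 transcripts higher in vehicle rats (3.8%) and 751 lower (5.98%), 1228 in all. DESeq2 also called 0. With quality weights, limma voom found 2 scarce transcripts past the threshold, Dennd2d and Wdr93, which were singled out after their values were seen. Dennd2d, which encodes an activator of Rab GTPases, measured 1.2, 1.03, 0.84, 0.40 and 0.91 CPM in vehicle rats 17, 27, 33, 50 and 57, and 0.30, 0.94, 0.27, 0.48 and 0.27 CPM in sham rats 8, 11, 54, 63 and 81, an order of rats used for every gene below. The groups overlapped for Dennd2d, through vehicle rat 50 and sham rat 11. Wdr93 measured 1.37, 1.03, 0.95, 0.70 and 1.34 CPM in vehicle rats and 0.73, 0.50, 0.22, 0.61 and 0.16 CPM in sham rats, with overlap between vehicle rat 50 and sham rat 8. The voom adjusted p-values were 0.0295 and 0.0305. The animals are separate rats, so all these p-values rest on a spread between rats. That spread was estimated over all 29 libraries and partly shared between transcripts, not from the 10 libraries alone. A fit of the 10 libraries alone gave 175 of 12210 transcripts (1.43%) at an unadjusted p under 0.05, and edgeR called 0. Below, values are therefore given as descriptions, and none of the genes named for week 11 passed edgeR's threshold.

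The repeats changed how many transcripts had an unadjusted p under 0.05. Without rat 27 there were 291 higher (2.32%) and 747 lower (5.96%) of 12532 tested. With the share of reads outside features as a covariate there were 357 higher (2.84%) and 379 lower (3.02%). With both changes there were 87 higher (0.694%) and 215 lower (1.72%), and without rats 8 and 27, a repeat chosen after seeing the data, 424 in all, 172 higher (1.37%) and the rest lower (2.01%). In every one of these 4 repeats edgeR called 0 transcripts. Of the 1228 transcripts, 749 (61.0%) were also under 0.05 without rat 27, where they made up 72.2% of its list, 495 (40.3%) with the covariate, and 117 (9.53%) with both changes.

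Ion channel transcripts more often had positive than negative values, by small amounts that the repeats did not all keep. Over all 12556 transcripts 51% had positive values. Voltage-gated potassium channels set how fast a neuron repolarises. Of 29 tested transcripts 19 had positive values. At an unadjusted p under 0.05, 5 were higher and 0 lower, where 3.8% of all transcripts were higher. Without rat 27, 22 had positive values and 2 were higher, where 2.32% of all transcripts were. With the covariate 13 had positive values, where 42.4% of all transcripts did. There 4 were higher and 1 lower, where 2.84% and 3.02% of all transcripts were. With both changes 1 was higher and 1 lower (0.694% and 1.72% of all). The median log2 fold change of the list was 0.05, or -0.01 with the covariate, against 0.00 over all 12556 transcripts. Kcna2, the Kv1.2 subunit found beside the nodes of myelinated axons, measured 167, 137, 102, 77.3 and 72.2 CPM in vehicle rats and 62.9, 26.8, 87.8, 52.7 and 63.3 CPM in sham rats. Vehicle rats 17 and 27 were the highest and sham rat 11 the lowest, and the groups overlapped because vehicle rats 50 and 57 lay under sham rat 54. The means were 111 ± 40.4 and 58.7 ± 22 CPM (SD, n = 5 each), a log2 fold change of 0.92 (SE 0.25) with an edgeR p of 0.0011 and an adjusted p of 0.507. The log2 fold change was 0.83 without rat 27, 0.82 with the covariate and 0.86 without rats 8 and 27. It fell to 0.63 with the covariate and without rat 27, and to 0.62 without rats 8, 11 and 27.

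Other channel genes had smaller differences. Kcnma1, the BK channel opened by calcium and voltage, measured 37.1, 46, 38.2, 30 and 33.1 CPM in vehicle rats and 28.8, 24.1, 33.5, 30.6 and 28.8 CPM in sham rats, a log2 fold change of 0.34 (SE 0.11). Kcnh5, a channel of the ether-à-go-go family, measured 3.14, 9.58, 2.45, 1.6 and 2.63 CPM and 1.82, 1.45, 2.75, 1.69 and 2.12 CPM. Its log2 fold change of 0.91 was 0.32 without rat 27, whose level was the highest. Kcnk10, the mechanically gated leak channel TREK-2, which was singled out after its values were seen, measured 15.4, 14.9, 14.7, 15.4 and 16.7 CPM against 12.1, 11.2, 14, 13.8 and 14 CPM. For Kcnk10 every vehicle library lay above every sham library, which held for 9 of the 12556 transcripts tested (0.0717%). The log2 fold change was 0.25 (SE 0.10), with an edgeR adjusted p of 0.507.

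Among 10 voltage-gated sodium channel transcripts, 8 had positive values, or 6 with the covariate, and the median was 0.22. At an unadjusted p under 0.05, 1 was higher and 0 lower, where 3.8% and 5.98% of all transcripts were. Scn3b, a beta subunit that modulates channel gating, measured 158, 229.5, 161, 154 and 161 CPM in vehicle rats and 154, 115, 146, 151 and 141 CPM in sham rats. Every vehicle library lay above every sham library, but vehicle rat 50 and sham rat 8 were nearly equal, at 153.6 and 153.5 CPM, and rat 27 lay far above the rest. The log2 fold change was 0.29 (SE 0.11), and 0.17 without rat 27. Scn8a, the main channel of nodes of Ranvier, measured 327, 271, 278, 249.8 and 294 CPM and 210.4, 103, 299, 253 and 251 CPM, with sham rats 8 and 11 lowest (log2 fold change 0.35 (SE 0.18)). Its value was 0.16 without sham rat 11 and 0.11 without rats 8, 11 and 27. The list's mean log2 CPM was 6.84 and 6.94 in sham rats 8 and 11, 7.61 to 7.66 in the other sham rats and 7.31 to 7.75 in vehicle rats. The median of the list was 0.05 with the covariate, 0.14 without rats 8 and 27 and 0.02 without sham rats 8 and 11.

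Calcium and HCN channels gave a median of 0.09 over 18 transcripts, 10 of them positive, where 51% of all transcripts were. At an unadjusted p under 0.05, 2 were higher and 0 lower, where 3.8% and 5.98% of all transcripts were. The median was 0.01 with the covariate, and it was negative without sham rat 11 (-0.01), without sham rats 8 and 11 (-0.03) and in limma voom (-0.04). Cacna2d3, an auxiliary subunit that carries calcium channels to the membrane, measured 201, 182, 182, 174 and 216 CPM in vehicle rats and 162, 165, 184, 171 and 167 CPM in sham rats. The difference was small and even, with a log2 fold change of 0.17 (SE 0.06), 0.19 without rat 27 and 0.13 with the covariate. Cacna1e, the R-type channel pore, was at 4.56, 19.3, 2.23, 1.9 and 1.45 CPM and 2.36, 0.56, 2.2, 1.78 and 1.8 CPM. The value of 19.3 CPM in rat 27 made most of its log2 fold change of 1.68, which was 0.54 without that rat.

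Genes of axon guidance and of transmitter release showed the same dependence. Of 37 guidance transcripts 26 had positive values, 2 were higher and 1 lower at an unadjusted p under 0.05, where 3.8% and 5.98% of all transcripts were, and the median of 0.16 was 0.18 without rat 27 but 0.02 with the covariate and -0.05 without sham rats 8 and 11. Dcc, a netrin receptor that steers growing axons, measured 1.54, 2.47, 1.17, 0.95 and 1.61 CPM in vehicle rats and 0.42, 0.39, 1.37, 0.69 and 0.80 CPM in sham rats. Sham rats 8 and 11 were lowest, sham rat 54 lay among the vehicle rats, and the log2 fold change was 1.02 (SE 0.30). It was 0.69 without rats 8 and 27, 0.46 with the covariate and without rat 27, and 0.48 without rats 8, 11 and 27. Unc5d, another netrin receptor, measured 1.31, 2.06, 1.34, 0.55 and 1.29 CPM and 0.79, 0.67, 0.60, 1.08 and 0.96 CPM, with overlapping groups (edgeR adjusted p = 0.528). Of 42 transcripts of synaptic vesicle release 2 were higher and 0 lower at an unadjusted p under 0.05. Sv2b, a glycoprotein of the synaptic vesicle, measured 637, 548, 556, 554 and 649 CPM and 482, 399.9, 627, 533 and 554 CPM, and the calcium sensor Syt1 measured 134, 129.7, 139.9, 97.6 and 129.7 CPM and 98.4, 77.6, 117, 131 and 118 CPM. Both overlapped between groups, and the log2 fold changes were 0.18 and 0.22, or 0.10 and 0.12 without sham rat 11. With the covariate and without rat 27 they were 0.11 and 0.02.

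Galanin, a neuropeptide that sensory neurons make in quantity after nerve injury, was at lower levels in vehicle rats. Gal measured 7.76, 7.83, 8.41, 10.4 and 7.25 CPM in vehicle rats and 11.6, 15.9, 9.78, 13.5 and 12.1 CPM in sham rats. Only vehicle rat 50 and sham rat 54 crossed. The means were 8.33 ± 1.23 and 12.6 ± 2.31 CPM (SD, n = 5 each), a log2 fold change of -0.59 (SE 0.15) with an edgeR p of 0.00069 and an adjusted p of 0.507. The log2 fold change was -0.57 without rat 27, -0.49 with the covariate and -0.60 without rats 8 and 27. It was -0.43 with the covariate and without rat 27, and -0.47 without rats 8, 11 and 27.

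The axon injury list as a whole had a median of -0.06 over 25 transcripts, or 0.01 without rat 27. Counting Gal, which was the only lower one, 1 was lower and 2 were higher (Nts and Cckbr) at an unadjusted p under 0.05. Of all transcripts 5.98% were lower and 3.8% higher. Without rat 27, 1 was lower and 0 were higher, where 5.96% and 2.32% of all transcripts were. Atf3, the transcription factor that marks injured sensory neurons, measured 17.9, 16.3, 17.4, 19.5 and 20.8 CPM in vehicle rats and 23.9, 23.1, 19.9, 21.8 and 18.2 CPM in sham rats. The groups overlapped, and the log2 fold change was -0.22 (SE 0.19), with an edgeR adjusted p of 0.678. Gap43, a growth cone protein, measured 269.7, 253, 299, 276 and 277 CPM and 287, 353, 253, 309 and 281 CPM, and Jun measured 81.4, 86.3, 109.5, 106 and 75.3 CPM and 125, 86.2, 84.6, 115 and 97.6 CPM. Their log2 fold changes were -0.11 and -0.15, with wide overlap between groups. Npy had no transcript among those tested, so no value is given for it. Pvalb, a calcium buffer of proprioceptors, measured 180.4, 156, 149, 170.3 and 189 CPM and 166, 247, 194, 135 and 174 CPM, a log2 fold change of -0.12 (SE 0.12). Markers of proprioceptors had a median of -0.12 over 11 transcripts. At an unadjusted p under 0.05, 1 of them was lower, where 5.98% of all transcripts were. In whole ganglia, fewer cells of a type and less RNA in each such cell cannot be told apart.

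Genes that lay lower in nearly every vehicle rat had varied functions. Madcam1, an adhesion molecule of vessels that binds lymphocytes, measured 1.43, 1.75, 1.61, 1.95 and 1.24 CPM in vehicle rats and 3.45, 2.17, 2.09, 2.78 and 2.12 CPM in sham rats, a scarce transcript whose groups did not overlap. The log2 fold change was -0.66 (SE 0.16), with an edgeR adjusted p of 0.507, and it was -0.69 without rat 27 and -0.55 with the covariate. Ten1, a subunit of the complex that caps telomere ends, measured 14.4, 15.1, 13.4, 14.7 and 13.3 CPM and 19.4, 21.2, 15.4, 15.5 and 16.8 CPM, also without overlap, a log2 fold change of -0.32 (SE 0.09). Sham rats 8 and 11 were the highest, and the value was -0.23 with the covariate and -0.19 without rats 8, 11 and 27. Nnmt, which methylates nicotinamide and was singled out after its values were seen, measured 10.8, 11, 11.5, 13.3 and 13.2 CPM and 14.6, 17, 14.8, 14.9 and 13.6 CPM. Its groups did not overlap either, and its log2 fold change of -0.32 was -0.30 with the covariate. Over all 12556 transcripts 0.183% had every vehicle library below every sham library.

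Mrpl22, a protein of the mitochondrial ribosome, measured 19.3, 17.4, 18.3, 22.1 and 18.4 CPM and 26.7, 27.6, 20.3, 22.2 and 23.9 CPM. Naa10, the catalytic subunit of a protein N-terminal acetyltransferase, measured 18.5, 19.4, 22.3, 20 and 17.7 CPM and 30.5, 25.3, 20.4, 25.8 and 22.8 CPM. Coq6, an enzyme of coenzyme Q synthesis, measured 44.6, 41.9, 45.7, 52.5 and 44 CPM and 61.9, 64.2, 49, 53.1 and 51 CPM. For all 3 genes sham rats 8 and 11 held high values and sham rat 54 lay within the vehicle range, and the log2 fold changes were -0.34, -0.35 and -0.29. Without rats 8, 11 and 27 they were -0.18, -0.22 and -0.12. Dnpep, an aspartyl aminopeptidase, showed the same pattern, with a log2 fold change of -0.27, or -0.12 without those 3 rats.

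Without rat 27 the smallest p-values among named genes after Madcam1 belonged to Araf, Poc1a and Nabp2. Araf, a kinase of the Raf family, measured 27.9, 34, 29.9, 28.4 and 26.1 CPM in vehicle rats and 34.4, 35.6, 31.4, 37.9 and 33 CPM in sham rats. This is 1 of 2 transcripts of the gene. Rat 27 lay among the sham rats and the other 4 vehicle rats below all 5, so that the log2 fold change was -0.24 with rat 27 and -0.30 without it. Poc1a, a centriole protein, measured 2.34, 3.6, 2.67, 2.2 and 2.2 CPM and 3.94, 3.5, 2.8, 3.95 and 3.66 CPM, and its value was -0.48 with rat 27 and -0.60 without. Nabp2, which binds single-stranded DNA, likewise went from -0.44 to -0.52.

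At the high end, Rasgrp1, an activator of Ras that responds to diacylglycerol, measured 42.9, 77, 44.4, 42.8 and 52.4 CPM in vehicle rats and 34.2, 30.7, 41.2, 36 and 35.4 CPM in sham rats. The groups did not overlap, rat 27 was the highest, and the log2 fold change was 0.54 (SE 0.15), or 0.36 without rat 27. Herc2, a large ubiquitin ligase, measured 435, 418, 346, 357 and 348 CPM and 289, 212, 366, 313 and 312 CPM, with sham rat 11 lowest, a log2 fold change of 0.35 (SE 0.09). That value was 0.31 with the covariate and 0.17 without rats 8, 11 and 27. Ube4a, another ubiquitin ligase, measured 436, 383, 404, 413 and 469 CPM and 365, 313, 432, 334 and 380.1 CPM, and its log2 fold change of 0.21 was 0.24 without rat 27. Fbxl22, an F-box protein, measured 20.2, 27.2, 26.4, 24.4 and 25.8 CPM and 15.2, 18.9, 22.8, 19.1 and 21.9 CPM (log2 fold change 0.34 (SE 0.09)), with vehicle rat 17 inside the sham range. Pcdhb6, a protocadherin of the neuronal surface, gave 0.30, with 0.37 without rat 27, 0.24 with the covariate and 0.19 without vehicle rat 57.

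**Figure D2:**
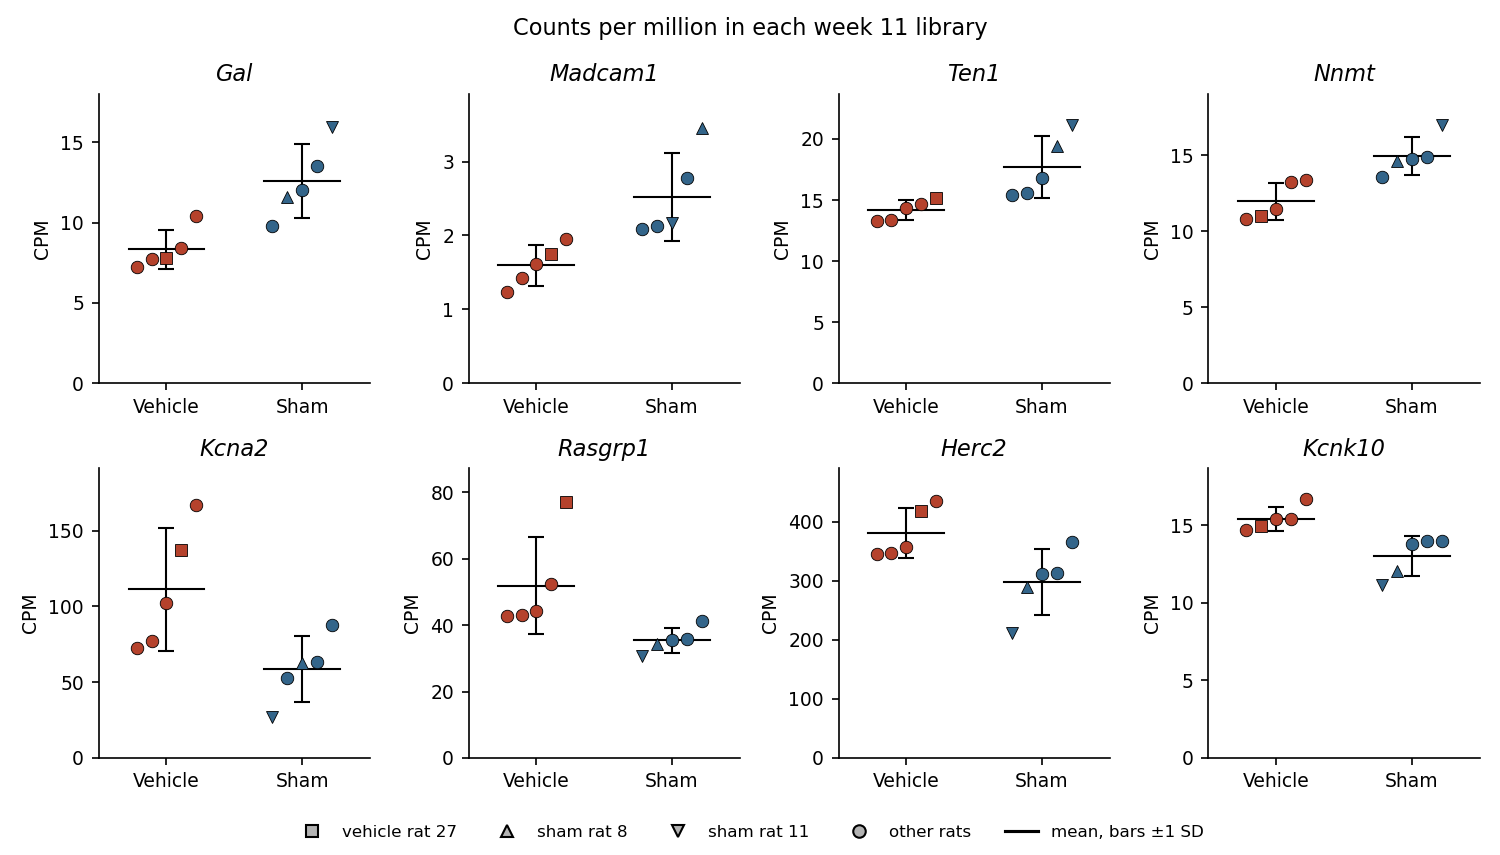
Library-scaled counts (CPM) of 8 genes in each week 11 library, one point per rat, with group means and SD (n = 5 each). Madcam1, Ten1, Nnmt, Rasgrp1 and Kcnk10 have groups that do not overlap, while Gal, Kcna2 and Herc2 cross by 1 or more rats.

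Over the whole set, 9 transcripts had every vehicle library above every sham library (0.0717%) and 23 had every vehicle library below (0.183%). Besides those named above, the higher ones included Pla2r1, a phospholipase receptor, and the polarity protein Pard3. Among the lower ones were the retinol dehydrogenase gene Dhrs4, the cilium gene Ift43 and the acyl-CoA synthetase gene Acsbg1, with log2 fold changes of -0.29, -0.27 and -0.19. All 5 were picked from the list after it was made. Without rat 27 the counts were 25 and 43.

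Transcripts of energy metabolism and of protein synthesis were lower in vehicle than in sham rats by small amounts, in step with 2 sham libraries. Of 69 transcripts of the mitochondrial respiratory chain 28 were lower and 0 higher at an unadjusted p under 0.05, where 5.98% of all transcripts were lower, and 2 had positive values. The median log2 fold change was -0.18, and 6403 of the 12556 transcripts of the whole table had positive values. Uqcr10, a subunit of complex III, measured 55.8, 53.4, 68.7, 70.2 and 47.7 CPM in vehicle rats and 96.8, 96.9, 56.5, 82.7 and 72.4 CPM in sham rats. Sham rats 8 and 11 were highest and sham rat 54 lay inside the vehicle range, which was also so for the complex I subunits Ndufa11 and Ndufa2 (log2 fold changes -0.45, -0.41 and -0.28). The list's mean log2 CPM was 7.36 and 7.504 in sham rats 8 and 11, 6.97 to 7.002 in the other sham rats and 6.93 to 7.06 in vehicle rats. Leaving out sham rats 8 and 11 brought the median to 0.01, while it stayed at -0.18 without rat 27 and was -0.15 without rats 8 and 27. With the covariate it was -0.08, with 5 transcripts lower at an unadjusted p under 0.05, where 3.02% of all transcripts were.

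Cytosolic ribosomal proteins followed the same libraries. Of 77 transcripts 25 were lower and 0 higher at an unadjusted p under 0.05, where 5.98% of all transcripts were lower. The median was -0.16. Without rat 27, 31 were lower, where 5.96% of all transcripts were. With the covariate 2 were lower, where 3.02% of all transcripts were. With the covariate and without rat 27, 1 was lower (1.72% of all). Rps18, of the small subunit, measured 142, 164, 150.2, 162 and 137 CPM and 212, 224, 139, 179 and 162 CPM, and Rps16 measured 262, 273, 240.2, 262 and 226 CPM and 344, 373, 249.6, 254 and 266 CPM. The list's mean log2 CPM was 7.18 and 7.34 in sham rats 8 and 11, 6.74 to 6.88 in the other sham rats and 6.72 to 6.95 in vehicle rats, and its median was 0.02 without sham rats 8 and 11. The antioxidant and glutathione list had 5 of 27 transcripts lower and 0 higher, where 5.98% of all transcripts were lower, with a median of -0.10. Of the 27, 5 were lower without rat 27, 2 with the covariate and 1 with both changes. The highest libraries were again sham rats 8 and 11 for Sod1, the cytosolic superoxide dismutase (235, 235, 234, 251.8 and 254 CPM in vehicle rats, 306, 337, 238, 274 and 236 CPM in sham rats), and for the glutathione peroxidase Gpx1 (66.4, 76.9, 78.7, 79.2 and 58.7 and 100.0, 115, 68.6, 75.7 and 76.7 CPM). Without those rats the median of that list was -0.02. The same 2 libraries had the lowest shares of reads outside annotated features, and the part of that share in these results was not tested beyond the covariate fit.

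The unfolded protein response has one arm, through ATF6 and XBP1, that makes chaperones of the endoplasmic reticulum, and another, through PERK and the transcription factor ATF4, that also answers a lack of amino acids. Of 22 transcripts in the list 3 were lower and 0 higher at an unadjusted p under 0.05, with a median of -0.09, where 5.98% of all transcripts were lower. The 3 were Chac1, Trib3 and Atf4, and the ATF4 arm itself was not tested as a group. With the covariate the median was -0.04 and 1 was lower, where 3.02% of all transcripts were. Without sham rat 8 the median was -0.05 and 1 was lower, where 222 of all 12552 were. Without sham rats 8 and 11 the median was -0.01 and 0 were lower, where 79 of all 12612 were. Sequences are shown for the 2 lower genes whose start region holds an ATF4 element, with the chaperone gene Hspa5 for contrast. The promoters are from RefSeq on build GRCr8, 250 bases before to 50 after the start, with the ATF4 element (letters TGATGNAA, where N is any base, read on both strands) in capitals for Chac1 and Trib3. In Hspa5 the capitals mark the endoplasmic reticulum stress element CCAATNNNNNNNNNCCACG.
Chac1 (chr3:126795881-126796180, + strand): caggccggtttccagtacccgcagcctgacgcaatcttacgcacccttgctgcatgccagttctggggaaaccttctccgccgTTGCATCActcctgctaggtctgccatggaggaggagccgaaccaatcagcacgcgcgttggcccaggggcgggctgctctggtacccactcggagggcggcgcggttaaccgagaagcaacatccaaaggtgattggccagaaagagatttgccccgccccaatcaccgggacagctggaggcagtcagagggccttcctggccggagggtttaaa
Trib3 (chr3:161275484-161275783, - strand): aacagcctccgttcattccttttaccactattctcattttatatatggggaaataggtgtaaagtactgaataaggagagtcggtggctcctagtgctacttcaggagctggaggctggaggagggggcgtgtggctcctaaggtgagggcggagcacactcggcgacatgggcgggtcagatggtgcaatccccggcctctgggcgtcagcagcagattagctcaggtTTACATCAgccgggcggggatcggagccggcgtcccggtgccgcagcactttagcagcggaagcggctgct
Hspa5 (chr3:38452766-38453065, + strand): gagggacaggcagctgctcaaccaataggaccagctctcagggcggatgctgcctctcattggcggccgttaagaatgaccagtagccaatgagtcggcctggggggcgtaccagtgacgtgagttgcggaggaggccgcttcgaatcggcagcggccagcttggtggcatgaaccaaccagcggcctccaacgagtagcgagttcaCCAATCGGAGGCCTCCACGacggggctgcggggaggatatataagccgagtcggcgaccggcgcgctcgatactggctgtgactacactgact

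Relative to the sequences as printed, the ATF4 element stood on the minus strand in Chac1 and in Trib3, and the stress element on the plus strand in Hspa5. Over 27457 promoters, the first listed for each symbol, 3.82% held the ATF4 element, 0.0765% the stress element and 1.91% the cyclic AMP element TGACGTCA. Of the 22 promoters matched to the unfolded protein response list 7 held the stress element, 3 the ATF4 element and 1 the cyclic AMP element. The ATF4 element was not among the motifs planned and was added later. A match describes letters in this window and not binding.

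Chac1, a glutathione-degrading enzyme and target of ATF4, measured 16.8, 18, 18.6, 23.6 and 13.4 CPM in vehicle rats and 30.6, 25.1, 20.3, 26 and 20.9 CPM in sham rats. Only vehicle rat 50 overlapped the sham range, sham rat 8 was the highest, and the log2 fold change was -0.44 (SE 0.15). Trib3, a pseudokinase induced by ATF4, measured 0.74, 1.13, 1.73, 1.5 and 1.02 CPM and 2.73, 1.61, 1.65, 2.21 and 1.96 CPM, a log2 fold change of -0.72 (SE 0.29) for a scarce transcript. Atf4 itself measured 250.5, 236, 233, 267 and 249 CPM and 324, 304, 274, 234 and 256 CPM, with a log2 fold change of -0.17 (SE 0.08) and groups that overlapped. It was -0.11 without sham rat 8, -0.09 with the covariate and -0.025 without rats 8, 11 and 27. Hspa5, the main chaperone of the endoplasmic reticulum, measured 554, 489, 462, 559 and 524 CPM and 586, 597, 592, 456 and 547 CPM, with a log2 fold change of -0.10 (SE 0.11) and an edgeR p of 0.365.

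A wider list of ATF4 and amino acid response genes was put together after these values were seen, so its counts are a description. Of its 36 transcripts 8 were lower and 0 higher at an unadjusted p under 0.05, where 5.98% of all transcripts were lower, and the median was -0.11. The lower ones numbered 5 with the covariate, where 3.02% of all transcripts were lower, and 2 with the covariate and without rat 27 (1.72%). They numbered 3 without sham rats 8 and 11, where 79 of all 12612 transcripts tested were lower. The 8 were Phgdh, Shmt2, Chac1, Mthfd2, Trib3, Atf5, Cars1 and Atf4. Mthfd2, an enzyme of mitochondrial folate metabolism, measured 19.7, 21.2, 18.6, 23.1 and 19.8 CPM in vehicle rats and 26.5, 25.1, 28.4, 31.8 and 25.1 CPM in sham rats, and Cars1, the cysteinyl-tRNA synthetase, measured 56.1, 57.4, 56.7, 58.6 and 50.1 CPM and 66.5, 59.1, 61.4, 67.4 and 62.5 CPM. Neither had overlapping groups, and 0.183% of all transcripts had every vehicle library below every sham library. For Mthfd2 the highest sham rats were 63 and 54 and not 8 and 11, and its log2 fold change was -0.42 (SE 0.16). Phgdh, the first enzyme of serine synthesis, measured 86, 90.6, 88.8, 97.2 and 69 CPM and 133, 116, 86, 114 and 94 CPM, and the mitochondrial serine enzyme Shmt2 measured 68.9, 64.4, 70.9, 79.5 and 57.4 CPM and 98.7, 94.1, 66.7, 79 and 76.2 CPM. Both overlapped between groups, with log2 fold changes of -0.33 and -0.28. Without rats 8, 11 and 27 the values were -0.19 for Phgdh, -0.09 for Shmt2, -0.30 for Chac1, -0.63 for Trib3, -0.20 for Cars1 and -0.48 for Mthfd2. Of the 36 promoters matched to the list 12 (33.3%) held the ATF4 element and 0 the stress element. Of the 8 lower genes 3 held the ATF4 element (Cars1, Chac1 and Trib3), a share near that of the list. The median of the list was -0.14 without rat 27, -0.05 with the covariate and -0.07 without sham rats 8 and 11.

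**Figure D3:**
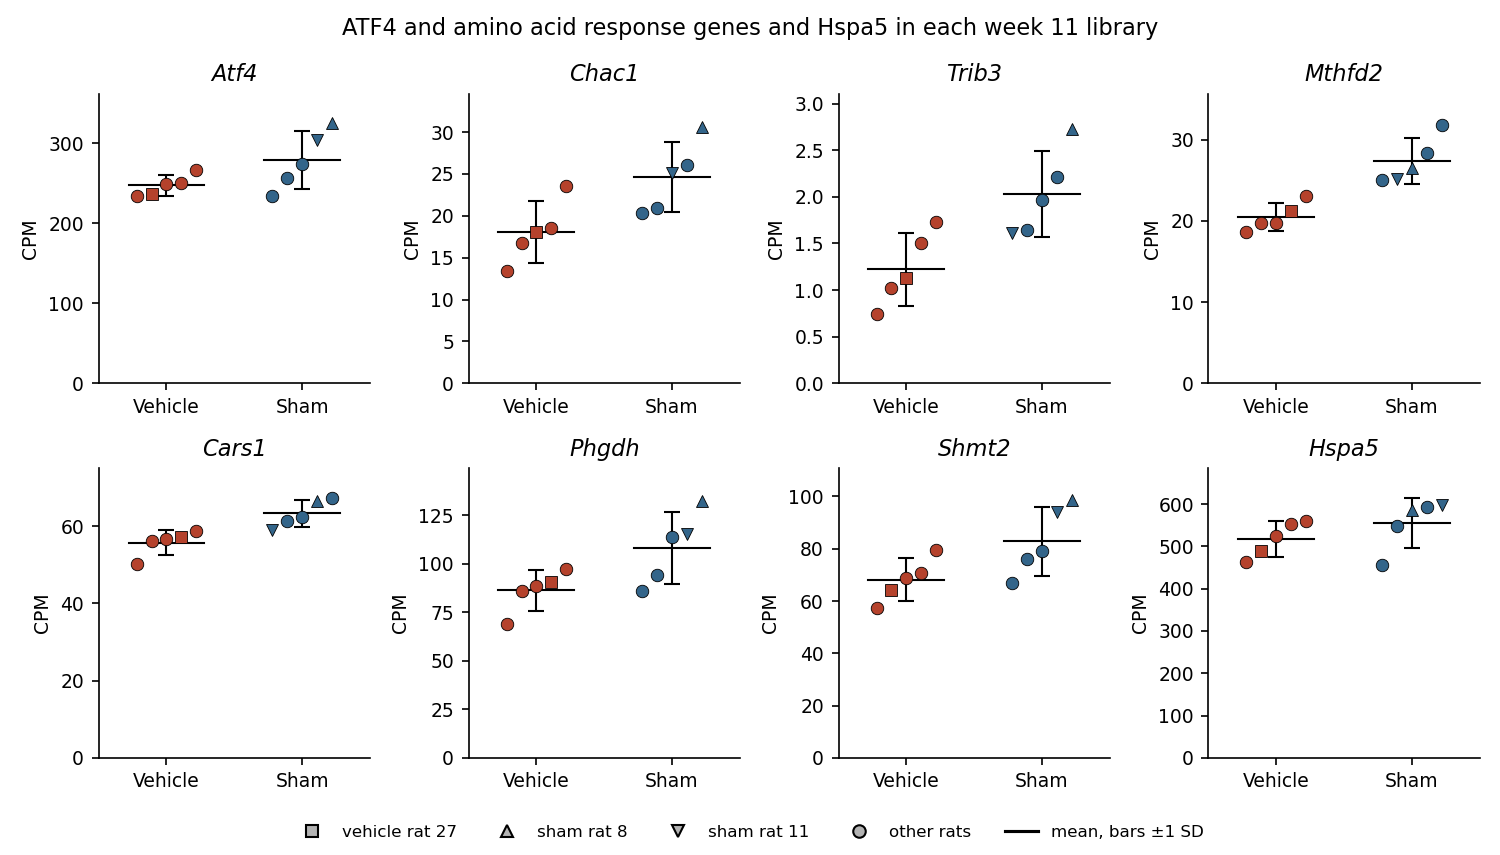
Library-scaled counts (CPM) of 7 ATF4 and amino acid response genes and of Hspa5 in each week 11 library, one point per rat, with group means and SD (n = 5 each). Mthfd2 and Cars1 have groups that do not overlap, and Hspa5, at 518 ± 41.7 CPM in vehicle and 556 ± 58.9 CPM in sham rats, overlaps widely.

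Genes of the immune system and of the brain had high values in the vehicle group that rested wholly or in part on rat 27. Cd74, the invariant chain of MHC class II molecules, measured 58.2, 613, 128, 85.3 and 51.1 CPM in vehicle rats and 44.5, 103, 58.9, 77.1 and 66.2 CPM in sham rats. The class II genes RT1-Da and RT1-Ba measured 13.6, 169.5, 27.4, 19.5 and 13.9 CPM and 7.93, 55.1, 12.9, 10 and 7.95 CPM in vehicle rats. Rat 27 was the highest in all 3, and their log2 fold changes of 1.41, 1.57 and 1.13 were 0.21, 0.20 and 0.21 without it. Cxcl13, the chemokine that draws B cells, measured 0.40, 6.38, 2.34, 0.25 and 0.48 CPM and 0.12, 0.44, 0.22, 0.43 and 0.42 CPM. Vehicle rat 33 was the next highest, and the log2 fold change of 2.38 was 1.34 without rat 27. The macrophage list had a median of 0.27 over 25 transcripts, and -0.02 without rat 27. At an unadjusted p under 0.05, 2 were higher and 0 lower, where 3.8% and 5.98% of all transcripts were. Summed over the 25, rat 27 stood at 1392 CPM, against 645 to 798 CPM in the other vehicle rats and 560 to 963 CPM in sham rats. It was the highest of the 10 libraries in 21 of the 25. Of the 11035 named transcripts with a mean of at least 1 CPM it was the highest in 1521.

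Another chemokine, Ccl24, which attracts eosinophils, measured 10.8, 9.16, 10.9, 6.95 and 10.5 CPM in vehicle rats and 4.42, 5.61, 9.89, 6.86 and 7.11 CPM in sham rats, with a log2 fold change of 0.51 (SE 0.21), or 0.52 without rat 27. Sham rats 8 and 11 were again the lowest, and with the covariate the value was 0.29.

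Mobp, a myelin protein of oligodendrocytes in the central nervous system, measured 0.68, 89.4, 1.06, 0.80 and 1.29 CPM in vehicle rats and 0.61, 0.78, 1.21, 1.00 and 1.17 CPM in sham rats. Nrgn, a postsynaptic protein of forebrain neurons, measured 0.91, 64.9, 0.78, 1.25 and 0.48 CPM and 1.15, 1.06, 0.82, 1.17 and 0.74 CPM. Mlc1, a membrane protein of astrocytes, reached 28.6 CPM in rat 27 and at most 0.97 CPM elsewhere, and the neuronal chloride transporter gene Slc12a5 reached 45.7 CPM in rat 27 and at most 2.48 CPM elsewhere. The log2 fold changes of these 4 genes were 4.22, 3.72, 3.32 and 2.47, and 0.00, -0.20, 0.22 and -0.02 without rat 27. Summed over 12 oligodendrocyte and central myelin markers, rat 27 stood at 429.7 CPM, against 122 to 174 CPM in the other vehicle rats and 141 to 167 CPM in sham rats, and it was the highest in 9 of the 12. Of 14 markers of central neurons and astrocytes it was the highest in 12. Both counts stand beside the 1521 of 11035 named transcripts in which it was the highest. Whether the library of rat 27 holds RNA of the ganglia alone was not tested, which limits each vehicle mean that includes it.

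With the covariate the smallest p-values among named genes belonged to transcripts of the same library. Rn45s, the precursor of ribosomal RNA, measured 0.11, 15.3, 0.67, 0.10 and 0.054 CPM in vehicle rats and 0.55, 0.056, 0, 0.26 and 0.11 CPM in sham rats, and Rpph1, the RNA of ribonuclease P, measured 0.23, 39.6, 0.72, 0.30 and 0.054 CPM and 0.48, 0.61, 0.11, 1.04 and 0.37 CPM. Cck, a neuropeptide abundant in brain, measured 0.11, 7.83, 0.50, 0.70 and 0.11 CPM and 0.42, 0.44, 0, 0.26 and 0.32 CPM. Rat 27 stood apart from all other rats in each. The part of the share of reads aligned at several places in these values was not tested.

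**Figure D4:**
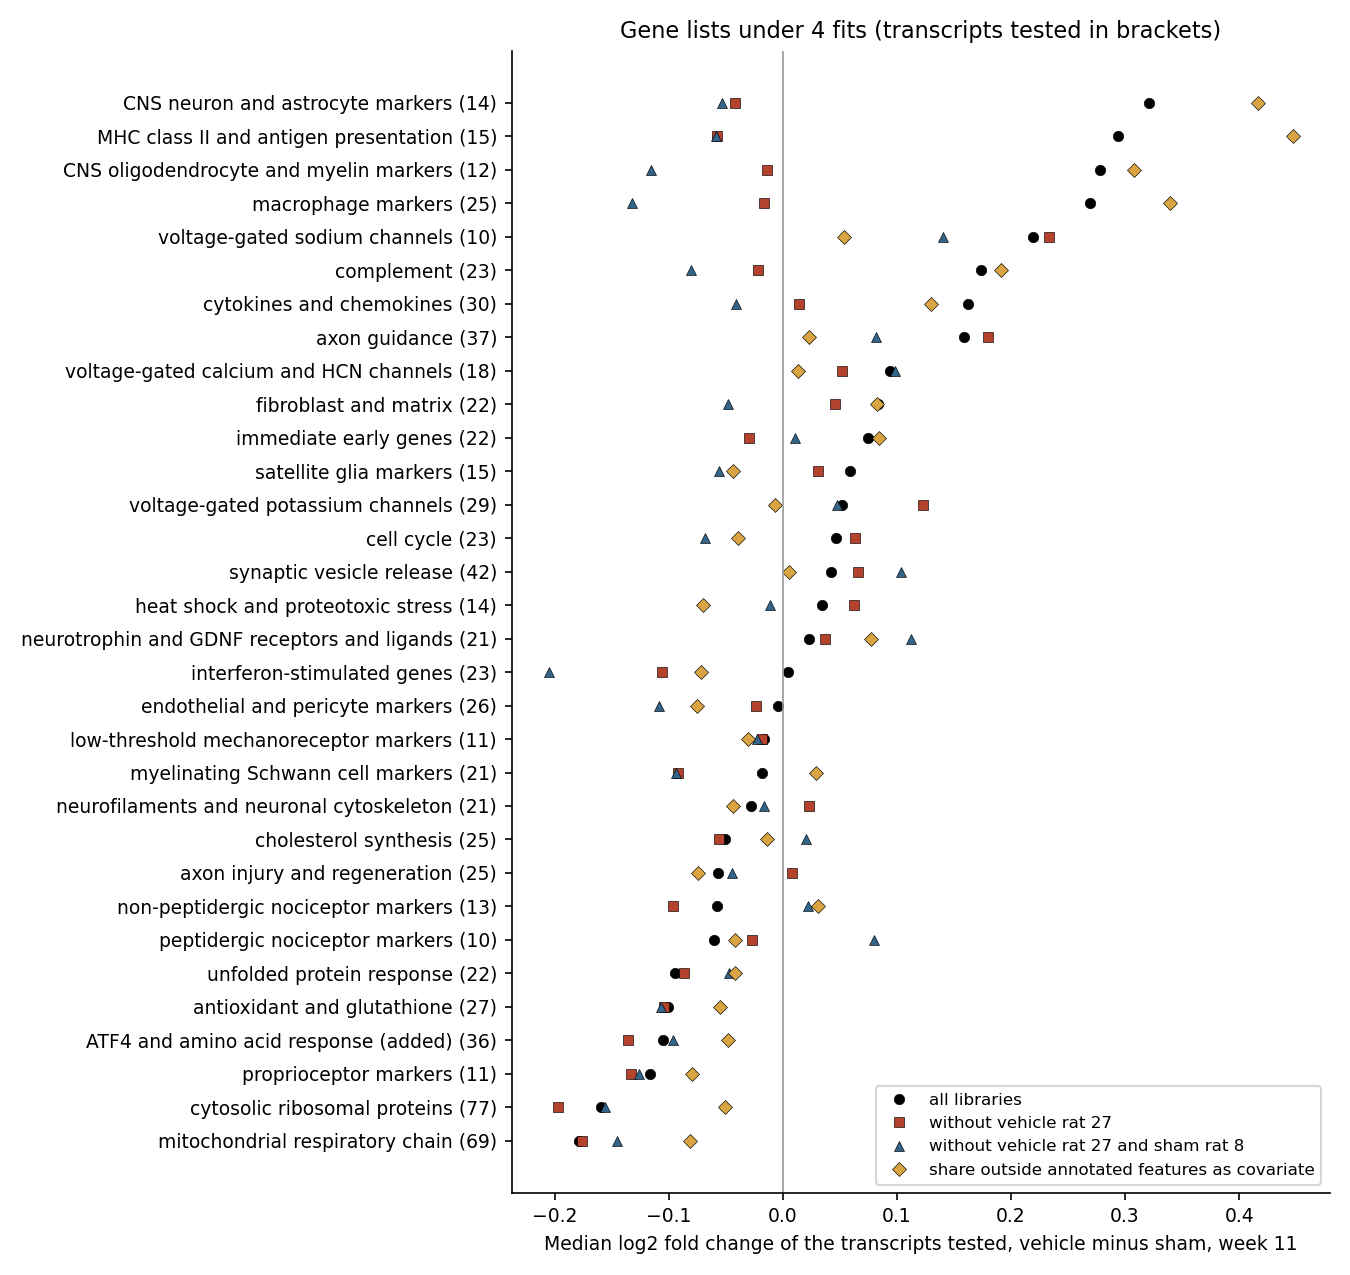
Median log2 fold change of vehicle against sham at week 11 for the gene lists, with all libraries (black), without vehicle rat 27 (red squares), without rats 27 and 8 (blue triangles) and with the share outside annotated features as a covariate (yellow diamonds). The macrophage, MHC class II and central nervous system lists move from medians of 0.27 to 0.32 to between -0.06 and -0.01 without rat 27. The respiratory chain list moves from -0.18 to -0.08 with the covariate. Not drawn are the skeletal muscle, adipocyte, erythrocyte, and lymphocyte and neutrophil lists. The median of the last was 0.19, or -0.13 without rat 27.

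The difference between vehicle and sham rats was then set against that at week 5, where 5 vehicle and 4 sham libraries were available. In edgeR's interaction test across 12556 transcripts, 0 passed an adjusted p under 0.05 (0%), and the smallest adjusted p was 0.456. At an unadjusted p under 0.05, 301 had a higher value at week 11 (2.4%) and 83 a lower one (0.661%). DESeq2 called 1 transcript, Clec10a, with an adjusted p of 0.0152, and limma voom called 1, Tp53inp2, with an adjusted p of 0.0302. The latter was named after its value was seen.

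Clec10a, a lectin of macrophages that binds galactose, measured 3.9, 3.97, 3.73, 3.38 and 5.02 CPM in the week 5 vehicle rats and 7.3, 7.05, 9.38 and 8.88 CPM in the week 5 sham rats, all vehicle rats below all sham rats. At week 11 it measured 7.76, 15.9, 6.4, 9.6 and 6.93 CPM in vehicle rats and 4.54, 6.84, 5.66, 7.38 and 7.96 CPM in sham rats, with overlap and rat 27 highest. The log2 fold changes were -1.03 at week 5 and 0.50 at week 11, and their difference was 1.53 (SE 0.31, edgeR adjusted p = 0.456). Without rat 27 the week 11 value was 0.24 and the difference 1.27 (edgeR adjusted p = 0.63), and without rats 8 and 27 the week 11 value was 0.14. Thbs1, a matrix protein that limits vessel growth, went from 9.68 ± 2.9 CPM in vehicle and 17.6 ± 3.45 CPM in sham rats at week 5 to 18.3 ± 2.52 and 13.3 ± 2.48 CPM at week 11 (mean ± SD, n = 5, 4, 5 and 5). Fam180a and Ramp1, the latter a subunit of the CGRP receptor, had the same shape. Their log2 fold changes were -1.23 and -0.93 at week 5 and 0.16 and 0.30 at week 11. For all 4 genes the log2 fold change was nearer to 0 at week 11 than at week 5. They were named for the smallest p-values of the interaction test, so the choice itself favours values that differ between the weeks. Crispld2, named by the same rule, is not described.

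**Figure D5:**
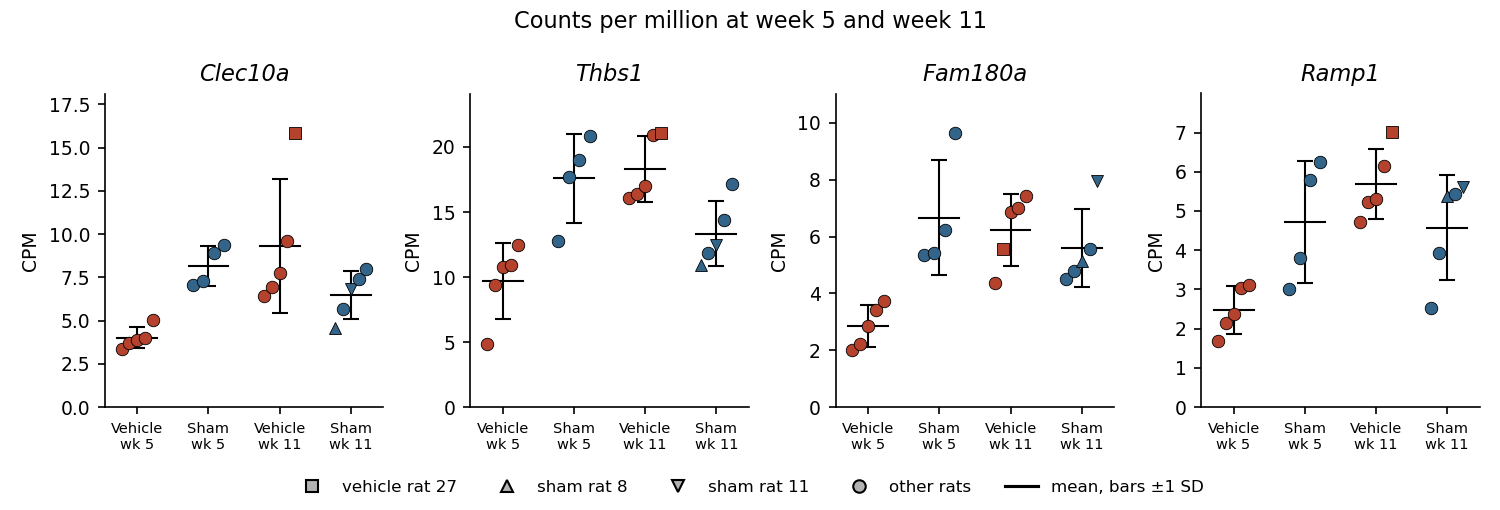
Library-scaled counts (CPM) of Clec10a, Thbs1, Fam180a and Ramp1 in vehicle and sham rats at week 5 (5 and 4 rats) and week 11 (5 rats each), with group means and SD. Week 5 vehicle rats are the lowest group for each gene, and the marked rats 27, 8 and 11 belong to week 11.

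Several genes named for week 11 had other values at week 5. Gal gave 0.10 at week 5 and -0.59 at week 11, a difference of -0.69 (edgeR adjusted p = 0.987), and Madcam1 gave 0.09 and -0.66, a difference of -0.75 (edgeR adjusted p = 0.987). Kcna2 gave 0.70 and 0.92, and Kcnma1 0.36 and 0.34, with differences of 0.22 and -0.03. The macrophage list had a median of -0.56 at week 5 and 0.27 at week 11, or -0.02 without rat 27.

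Rats with the same stroke and NT3 were compared with the same 5 sham libraries, so the 2 sets of values share sham rats 8 and 11. NT3 against sham gave -0.54 for Gal, where vehicle gave -0.59. It gave 0.41 for Kcna2, -0.22 for Madcam1, -0.33 for Chac1 and -0.43 for Mthfd2, where vehicle gave 0.92, -0.66, -0.44 and -0.42. The respiratory chain list had a median of -0.26 for NT3 and -0.18 for vehicle, and the ribosomal list -0.26 and -0.16. For Cd74 and Mobp, where rat 27 made the vehicle values, NT3 against sham gave -0.19 and 0.06.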

How the data were processed

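RNA of whole C6-8 dorsal root ganglia was measured in 29 rats. The submitters' processing notes name TopHat2, HTSeq, Picard and bcl2fastq 1.8.4, with build rn6 (Rnor_6.0) and no role for any. The deposited values are whole-number counts for each RefSeq transcript, with duplicate reads removed per the file names, with 5 summary lines that were kept out of library sizes. Reads assigned per library numbered 9555685 to 22773108. Removing duplicates lowers the counts of the most abundant transcripts, and the number of reads limits the precision of scarce ones.

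Of 18092 transcripts 17090 matched a symbol in a RefSeq table of a later assembly. The 1002 without one held 4.56% of the counts. In R 4.3.3, edgeR 4.0.16 kept 12556 transcripts (filterByExpr, minimum count 10, minimum total 15), scaled libraries by TMM and fitted 6 group means to all 29 libraries without covariates (quasi-likelihood test, two-sided, Benjamini-Hochberg adjusted p under 0.05). CPM values use these scaled sizes, and log2 CPM a prior count of 2. Alternatives used DESeq2 1.42.0 and limma 3.58.1. The scripts were tested on simulated data.

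The comparison, the members and the gene lists were chosen with earlier results of these data known. The naming rule covered, at 1 CPM or more, the smallest p-values over all transcripts, in each list and in the interaction, the transcripts in which rat 27 stood apart, and a fixed set. Genes named outside it are said to be. Chi-square tests of counts found no 2 libraries of a group that agreed within sampling noise.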

Additional observations from a re-analysis of the deposited data

Results flagged for a closer look

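Within each group of 5 rats, the highest or lowest rat was marked where its gap to the next rat made up more than 0.71 of the whole range, on the log2 scale for expression. Of 218 such groups (the genes named, 5 library measures and the gene lists) 19 were marked. Chance alone marks about 1 in 20 groups that were not picked by their values. Some genes were named because rat 27 stood apart in them, or after their values were seen. The 19 of 218 can therefore not be set against that rate. Of the 19 marked, 12 concern vehicle rat 27, and no cause was tested. Whether that library holds RNA of the ganglia alone was not tested either.

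In vehicle rat 27 the level of Mobp was 89.4 CPM, of Nrgn 64.9 CPM, of Mlc1 28.6 CPM and of Slc12a5 45.7 CPM, where the other 4 vehicle rats had at most 1.29, 1.25, 0.72 and 1.996 CPM. The class II genes RT1-Da and RT1-Ba stood at 169.5 and 55.1 CPM in that rat, and at most at 27.4 and 12.9 CPM in the other vehicle rats. The sodium channel subunit Scn3b stood at 229.5 CPM, against 153.6 to 161.3 CPM. On the log2 CPM scale macrophage markers averaged 4.64, those of oligodendrocyte and central myelin 4.38 and those of central neurons and astrocytes 5.09, with at most 3.67, 2.86 and 3.59 in the other vehicle rats. The same library had 9555685 assigned reads and 37.2% of reads aligned at several places.

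In sham rat 8 Hsp90aa1, a cytosolic chaperone singled out after its values were seen, stood at 0.97 CPM, while the other sham rats had 22.9 to 36.1 CPM. Its mean log2 CPM of cell cycle genes was 1.89, against 2.37 to 2.55. Sham rat 11 had 0.56 CPM of Cacna1e, against 1.78 to 2.36 CPM in the other sham rats, and in sham rat 54 Cck was at 0 reads, against 0.26 to 0.44 CPM. In vehicle rat 50 Syt1 was at 97.6 CPM, against 129.7 to 139.9 CPM, and in vehicle rat 57 Cars1 was at 50.1 CPM, against 56.1 to 58.6 CPM. Vehicle rat 33 had a mean log2 CPM of 5.75 for neurotrophin and GDNF receptors and ligands, against 5.65 to 5.68.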

How the results depend on the processing

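edgeR called 0 transcripts at week 11 under each of its alternatives, and 2 were called by limma voom. For the difference between the weeks DESeq2 and limma voom called 1 transcript each. The number with an unadjusted p under 0.05 was 1228, and it was 736 with the share outside features as a covariate, 302 with the covariate and without rat 27, and 175 where the fit held the vehicle and sham week 11 libraries alone. Among repeats chosen after seeing the data it was 424 without rats 8 and 27, 220 without sham rats 8 and 11, 169 without rats 8, 11 and 27, and 236 with the share outside features taken among uniquely aligned reads. Leaving out single libraries gave 530 (without sham rat 8) to 2714 (without sham rat 54). Transcripts with groups that do not overlap numbered 68 without rat 27 in place of 32, and 50 to 198 without single libraries, where fewer libraries leave more room. The cause was not tested for the other differences.

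Of 68 genes named, 61 kept their sign under every alternative and 7 did not. Many were named for small p-values in these same libraries, so the choice itself favours kept signs. The share over all transcripts was not counted. Without rat 27 the log2 fold changes were -0.20 for Nrgn, -0.021 for Slc12a5 and -0.72 for Rpph1. With the covariate as well they were -0.20 for Mobp, -0.18 for Slc12a5, -0.54 for Rpph1 and 0.0025 for Gap43. Without rats 8 and 27 they were -0.12 for Mobp, -0.15 for Nrgn, -0.080 for Slc12a5 and -0.76 for Rpph1. Without rats 8, 11 and 27 they were -0.22 for Mobp, -0.092 for Nrgn, -0.27 for Slc12a5, -0.70 for Rpph1, 0.0027 for Gap43 and 0.039 for Pvalb, which was 0.0083 without sham rats 8 and 11. Hsp90aa1, at 0.60, was -0.070 in limma voom and -0.023 with the share among uniquely aligned reads. Leaving out single libraries gave -0.20 to 4.03 for Nrgn, -0.021 to 2.76 for Slc12a5, -0.72 to 4.24 for Rpph1, -0.22 to 0.015 for Pvalb and -0.057 to 0.80 for Hsp90aa1. The share of reads aligned at several places was 0.15 percentage points lower in vehicle than in sham rats (-0.15) without rat 27.

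No paired analysis was possible because each rat number belongs to 1 library. Rn45s was filtered out without rat 27 and has no value there. Scarce transcripts such as Dcc, Trib3 and Madcam1, at about 1 to 3 CPM, rest on few reads, most of all in rat 27. Genes with several transcripts are undercounted, and the build used by the authors was not at hand.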
